A study of Homo sapiens with 12 samples.

Results

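The amino acid response and the unfolded protein response are described here through 37 genes, chosen by symbol and all found among the 59427 symbols of the table. They were split by role into an ATF4 arm of 23 genes and an endoplasmic reticulum (ER) arm of 14 genes. RNA came from 4 lines of the MCF10 human breast epithelial series, with 3 libraries per line in the labels. MCF10A is the non-tumorigenic parent, MCF10AT1 was transformed with HRAS carrying G12V, MCF10DCIS stands for ductal carcinoma in situ, and MCF10CA1a is metastatic. As background, MCF10DCIS and MCF10CA1a descend from xenografts of HRAS-transformed MCF10A cells. No line was treated, and one medium served all of them, with 2 mM glutamine, EGF, insulin, hydrocortisone, cholera toxin and horse serum. Each stage is represented by a single line, so a stage and the history of its line cannot be told apart.

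The values are the authors' mean TPM (a level scaled for transcript length and for the total of the library) of each line. They carry no error: the differences below have no replicate spread beside them and no p-value. The rule of size used here calls a gene higher or lower where log2(TPM + 1) differs by at least 1 between lines, and this scale understates differences of low genes. The 13108 genes with at least 1 TPM in at least 1 line were compared, and 36 of the 37 genes were among them. The transporter gene SLC1A4 was not, and its levels are given without a difference.

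When amino acids are scarce, uncharged tRNAs activate the kinase GCN2, which phosphorylates the initiation factor eIF2, slows translation in general and favours translation of the transcription factor ATF4. ATF4 then drives genes for amino acid synthesis and uptake. Unfolded proteins in the ER reach the same point through the kinase PERK, and they also act through IRE1, which splices XBP1 mRNA, and through ATF6, which together raise chaperones and degradation factors. Translation of ATF4, splicing of XBP1 and cleavage of ATF6 are not visible in a table of gene-level TPM.

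The arms differ in the DNA motifs next to their start sites. The genes were listed as known targets of these pathways, so shared motifs are partly built into the lists. RefSeq promoter windows (GRCh38.p14) of 250 bases before to 50 after the start were found for 33 of the 37 genes, 49 windows in all because some genes have several annotated starts, and searched on both strands. The ER stress response elements ERSE (CCAAT and CCACG with 9 free bases between them) and ERSE-II (ATTGG and CCACG with 1 free base between them), known as sites of ATF6, were matched in 8 of 14 ER-arm genes and in 0 of 19 ATF4-arm genes with a window. Of all 27305 genes with a window, 44 (0.161%) held either one. The C/EBP-ATF response element (CARE, TGATGNAA), known as a site of ATF4 with C/EBP partners, was matched in 6 of the 19 ATF4-arm genes and 1 of the 14 ER-arm genes, against 4.46% of all genes. A match describes letters in a window and does not show binding in these cells.

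The ER-arm stretches below show the matches in capitals, read 5′ to 3′ on the strand of the gene, because these elements are what most members of that arm share in sequence. They lie in GRCh38.p14 at chr9:125241379-125241421 (HSPA5, minus strand), chr12:103930204-103930351 (HSP90B1, plus), chr19:12938372-12938414 (CALR, plus), chr22:49918542-49918584 (CRELD2, plus), chr22:28800591-28800633 (XBP1, minus), chr11:119057262-119057405 (HYOU1, minus), chr22:21642102-21642136 (SDF2L1, plus) and chr16:56931954-56932047 (HERPUD1, plus).
HSPA5: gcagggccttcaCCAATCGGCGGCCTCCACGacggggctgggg
HSP90B1: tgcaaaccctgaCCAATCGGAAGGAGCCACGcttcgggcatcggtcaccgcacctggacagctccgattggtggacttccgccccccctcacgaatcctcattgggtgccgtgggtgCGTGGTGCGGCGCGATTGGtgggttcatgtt
CALR: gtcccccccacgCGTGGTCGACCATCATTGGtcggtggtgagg
CRELD2: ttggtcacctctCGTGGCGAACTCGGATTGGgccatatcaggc
XBP1: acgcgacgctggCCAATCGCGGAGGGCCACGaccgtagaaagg
HYOU1: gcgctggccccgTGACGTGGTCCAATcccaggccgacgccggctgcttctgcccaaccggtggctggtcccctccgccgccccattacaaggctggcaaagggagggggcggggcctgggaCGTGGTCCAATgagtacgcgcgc
SDF2L1: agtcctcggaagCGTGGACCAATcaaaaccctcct
HERPUD1: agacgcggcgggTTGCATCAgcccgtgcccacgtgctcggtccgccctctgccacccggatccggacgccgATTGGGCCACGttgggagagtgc

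HSP90B1 held 2 ERSE matches and HYOU1 held 2 ERSE-II matches. The first HYOU1 stretch in capitals also holds a match to TGACGTGG, known as the UPR element of XBP1, which overlaps the ERSE-II match and occurs in 0.927% of all genes. In HERPUD1 the first capitals are a CARE match and the second an ERSE-II match, so this gene of the ER arm carries both kinds.

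For the ATF4 arm, the CARE matches that lie wholly before the RefSeq start of their window are shown for 4 genes, since this is the element the ATF4 pathway is known for. They lie in GRCh38.p14 at chr7:97872457-97872488 (ASNS, minus), chr15:40953250-40953281 (CHAC1, plus), chr19:33374059-33374090 (CEBPG, plus) and chr19:46784892-46784923 (SLC1A5, minus).
ASNS: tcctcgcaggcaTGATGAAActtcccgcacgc
CHAC1: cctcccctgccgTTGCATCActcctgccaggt
CEBPG: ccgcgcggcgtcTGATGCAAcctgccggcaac
SLC1A5: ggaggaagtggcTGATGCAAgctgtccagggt

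The other CARE matches of the arm were in SLC1A4, across the start, and in SLC3A2, after it. The CEBPG match belongs to the downstream of 2 RefSeq starts and the SLC1A5 match to the most downstream of 3. Of the 12 printed stretches, 6 (HSP90B1, CRELD2, ASNS, CHAC1, CEBPG and SLC1A5) lie inside the gene as GENCODE draws it, which begins farther upstream.

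**Figure D1:**
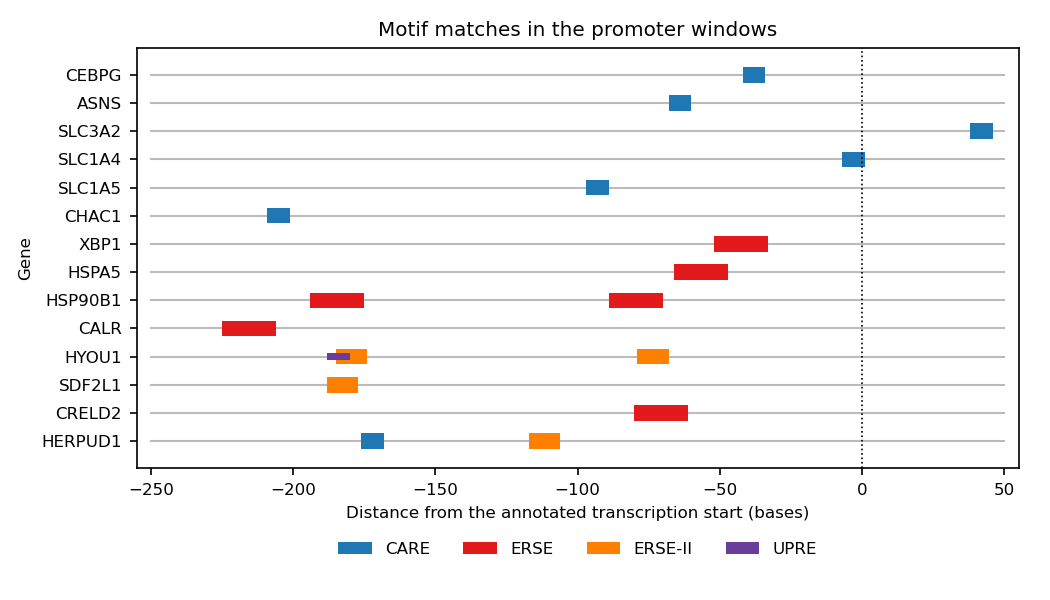
Matches to CARE, ERSE, ERSE-II and the UPR element along the promoter windows of the 14 genes with at least 1 match, with distance from the annotated start in bases on the horizontal axis and coloured bars for matches on either strand. ERSE and ERSE-II bars are seen only in the ER-arm rows, from XBP1 to HERPUD1, and HERPUD1 has a CARE bar as well.

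Facts of the whole table that bear on these genes are few. HRAS, which checks the labels, was 50.8 TPM in MCF10A against 126, 276 and 312 in MCF10AT1, MCF10DCIS and MCF10CA1a. All 7 epithelial markers reached 1 TPM in at least 1 line, with sums of 1601 to 2770 TPM across the lines. They were not level: against MCF10A, 4 were lower and 1 higher by the rule in MCF10AT1. In MCF10DCIS and in MCF10CA1a, 3 were lower and 1 higher. CDH1 was 149 TPM in MCF10A and 21.3 in MCF10AT1, and TP63 0.90 in MCF10A and 10.7 in MCF10CA1a. Of 8 fibroblast, 6 leukocyte and 4 endothelial markers, 1 each reached 1 TPM in at least 1 line, with sums of at most 3.63, 6.67 and 4.75 TPM. PTPRC, the defining leukocyte gene, stayed at or below 0.0128 TPM. Structural and small non-coding RNAs held 57.6% to 66.0% of the TPM, most in MCF10DCIS, where the log2 difference from MCF10A had a median of -0.38 over all genes, against -0.066 in MCF10AT1 and -0.074 in MCF10CA1a. TPM was therefore also rescaled to 1000000 without these RNAs, ribosomal protein and mitochondrially encoded genes (rescaled TPM). That brought the medians to 0.040 for MCF10AT1, -0.095 for MCF10DCIS and 0.046 for MCF10CA1a. Relative to MCF10A, the rule called 3.39% of measured genes higher and 5.87% lower in MCF10AT1, 3.56% and 14.8% in MCF10DCIS, and 5.97% and 7.14% in MCF10CA1a. Between MCF10CA1a and MCF10DCIS, 6.03% were higher and 1.35% lower. On rescaled values these shares became 5.8% and 6.65%, 7.82% and 10.3%, 9.44% and 7.79%, and 6.01% and 2.88%.

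ATF4 itself, the transcription factor at the head of the first arm, was abundant and below the rule of size in every comparison. Its mRNA was 183 TPM in MCF10A against 191, 182 and 138 in MCF10AT1, MCF10DCIS and MCF10CA1a. The lowest line was MCF10CA1a, with a log2 difference of -0.41 from MCF10A and -0.40 from MCF10DCIS. Rescaled TPM was 533, 609, 685 and 444 in the same order of lines, with MCF10DCIS the highest, 0.36 from MCF10A, and MCF10CA1a at -0.26 from MCF10A and -0.63 from MCF10DCIS. In bulk RNA, less of a transcript per cell and fewer cells that hold it cannot be told apart. The ATF4 gene lies on chromosome 22 from 39519695 to 39522685 (GRCh38).

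The factors that act with or after ATF4 were also below the rule of size, apart from NUPR1. DDIT3 (CHOP), a pro-apoptotic C/EBP relative and a textbook mark of ER stress, was 3.34 TPM in MCF10A against 2.51, 3.40 and 4.56 in MCF10AT1, MCF10DCIS and MCF10CA1a. CEBPB, CEBPG and ATF5, bZIP factors of the same network, spanned 38.3 to 45.9, 3.57 to 6.09 and 6.87 to 14.05 TPM across the lines. CEBPG and ATF5 were lowest in MCF10DCIS. NUPR1, a small stress-induced chromatin protein, was 3.24 TPM in MCF10A against 3.56, 3.98 and 0.385 in MCF10AT1, MCF10DCIS and MCF10CA1a. Its log2 difference in MCF10CA1a was -1.61 from MCF10A and -1.85 from MCF10DCIS, the lowest value of any of the 36 genes in both comparisons. NUPR1 lies on chromosome 16 from 28532708 to 28539174 (GRCh38).

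**Figure D2:**
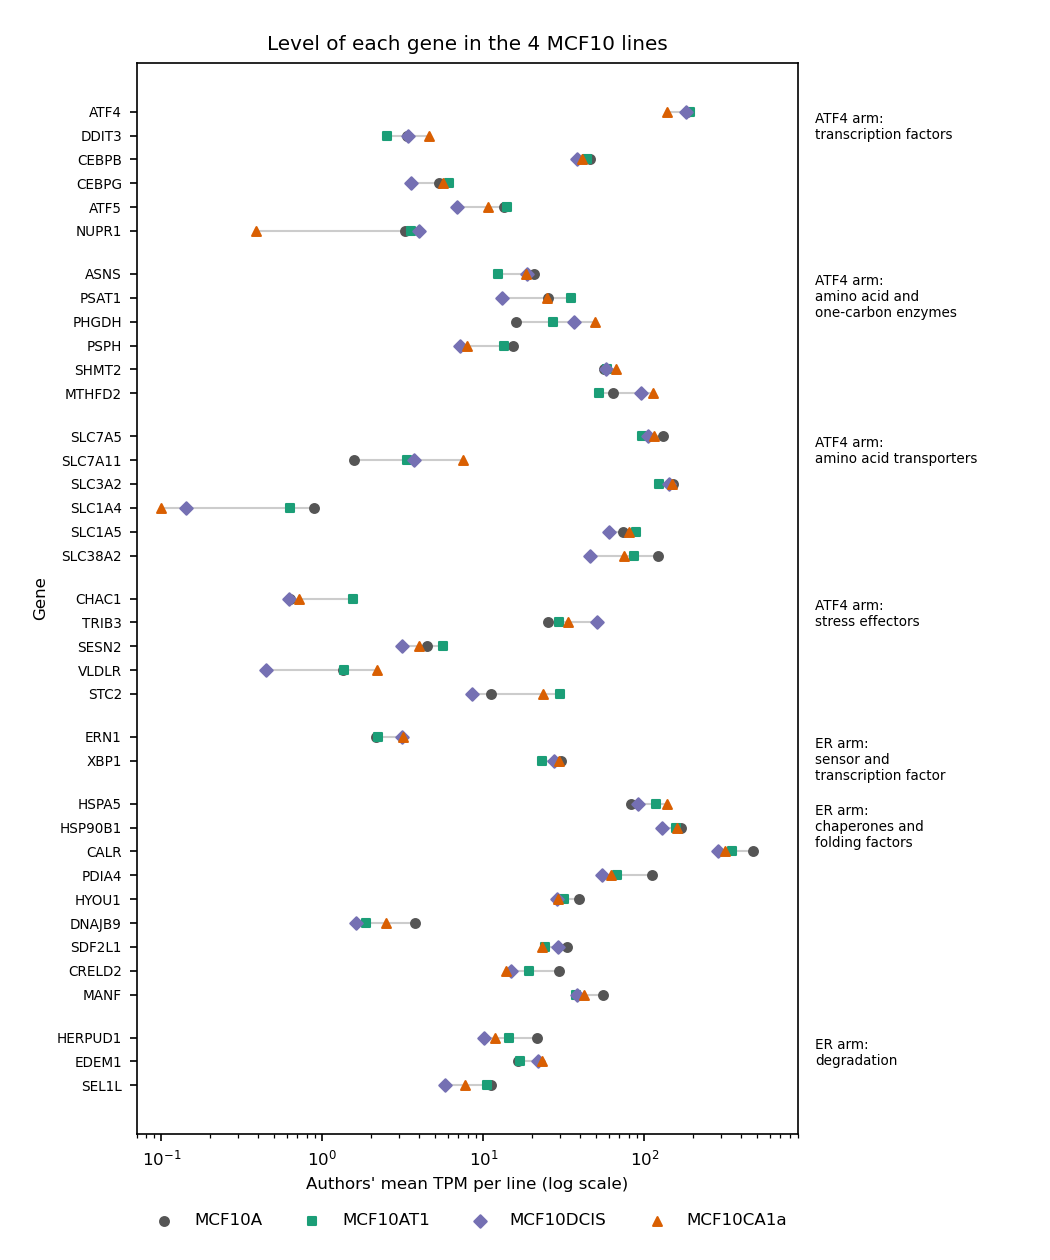
Authors' mean TPM of all 37 genes in each line on a log axis, with 1 symbol per line and a grey bar from the lowest to the highest line. NUPR1, SLC7A11, SLC1A4, PHGDH and STC2 have wide bars, whereas ATF4, SHMT2, SLC3A2 and XBP1 are narrow.

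Among enzymes, the steps of serine synthesis did not move as a block. PHGDH, the first and committed enzyme of serine synthesis from a glycolytic intermediate, was 15.9 TPM in MCF10A against 26.9, 36.7 and 49.4 in MCF10AT1, MCF10DCIS and MCF10CA1a. Each line was higher than the one before it in this order, and the log2 differences from MCF10A were 0.72, 1.16 and 1.58. PSPH, the phosphatase of the last step, was 15.4 TPM in MCF10A against 13.5, 7.20 and 7.86 in MCF10AT1, MCF10DCIS and MCF10CA1a. MCF10A and MCF10AT1 were high and both other lines low, with log2 differences from MCF10A of -0.17, -0.998 and -0.89, and the MCF10DCIS value stopped just short of the rule. PSAT1, the aminotransferase between them, was 25.1, 34.9, 12.97 and 24.8 TPM in the same order of lines. It was highest in MCF10AT1 and lowest in MCF10DCIS, which were 1.36 log2 units apart.

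Ratios of TPM within a line are unchanged by any single scaling factor per line. The ratio of PHGDH to PSPH was 1.03 in MCF10A against 1.99, 5.10 and 6.28 in MCF10AT1, MCF10DCIS and MCF10CA1a. That of PSAT1 to PHGDH was 1.58, 1.30, 0.354 and 0.502. PHGDH lies on chromosome 1 from 119648411 to 119744226, PSPH on chromosome 7 from 56011051 to 56051604, and PSAT1 on chromosome 9 from 78297143 to 78330093 (GRCh38).

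Of the mitochondrial folate enzymes that use serine, SHMT2 was level, between 56.1 and 66.4 TPM. MTHFD2, the dehydrogenase of the next step, was 63.5 TPM in MCF10A against 52.6, 94.9 and 114 in MCF10AT1, MCF10DCIS and MCF10CA1a. The last pair of lines was high, with log2 differences from MCF10A of 0.57 and 0.83, or 0.95 and 0.98 with rescaled TPM, below the rule on both scales. ASNS, asparagine synthetase and a classic ATF4 target, was 20.7, 12.3, 18.6 and 18.3 TPM, lowest in MCF10AT1 with a log2 difference of -0.70.

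**Figure D3:**
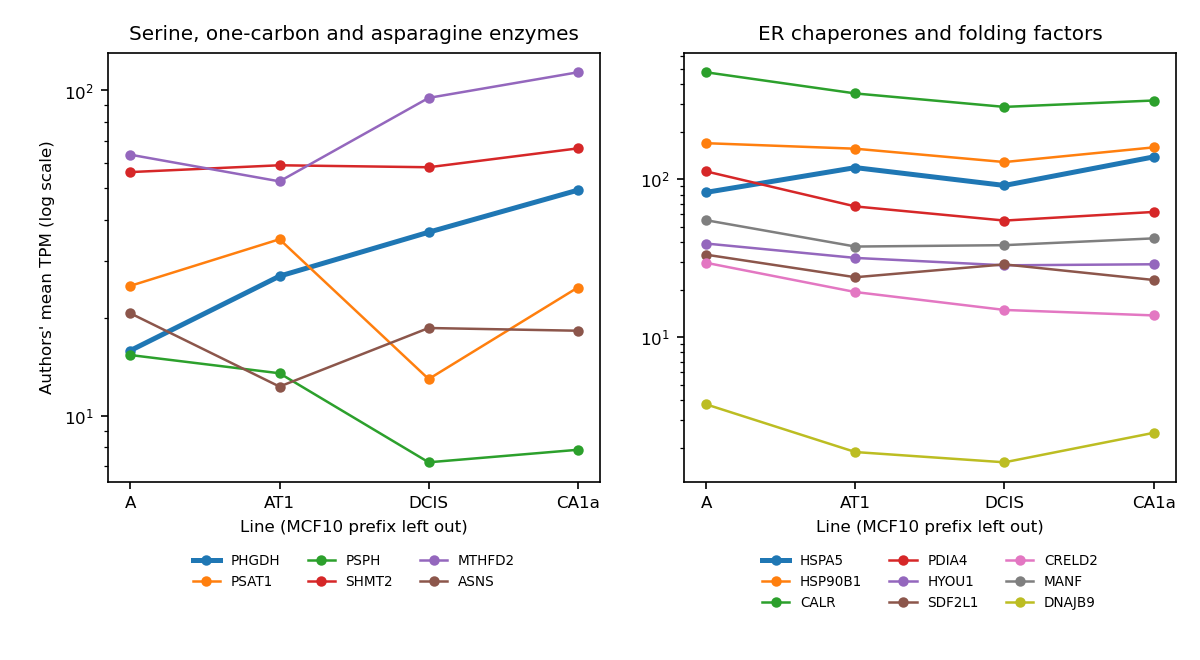
Authors' mean TPM on a log axis across the 4 lines for the 6 enzymes (left) and the 9 ER chaperones and folding factors (right), with lines joining the points of 1 gene. PHGDH (thick, left) goes from 15.9 to 49.4 TPM while PSPH goes from 15.4 to 7.86, and HSPA5 (thick, right) is lowest in MCF10A, where the other 8 are highest.

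Among the measured transporters, the lines lay farthest apart in SLC7A11, the cystine-glutamate exchanger that supplies cysteine for glutathione. It was 1.56 TPM in MCF10A against 3.37, 3.72 and 7.49 in MCF10AT1, MCF10DCIS and MCF10CA1a. MCF10A was the lowest line and MCF10CA1a the highest, and the log2 differences from MCF10A were 0.77, 0.88 and 1.73. With rescaled TPM, where a pseudocount weighs less on a low gene, they were 1.08, 1.43 and 2.18. SLC7A11 lies on chromosome 4 from 138164097 to 138242349 (GRCh38).

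SLC3A2, the heavy chain that SLC7A11 and SLC7A5 both need at the membrane, stayed between 123 and 152 TPM. SLC7A5, the leucine carrier, stayed between 96.0 and 131 TPM, and the ratio of SLC7A5 to SLC3A2 was 0.867, 0.781, 0.748 and 0.770 in MCF10A, MCF10AT1, MCF10DCIS and MCF10CA1a. The ratio of SLC7A11 to SLC3A2 was 0.0103, 0.0274, 0.0263 and 0.0506. The heavy chain was thus present in large excess of the exchanger at the mRNA level in all 4 lines.

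SLC38A2, a sodium-coupled carrier of glutamine and alanine that cells raise when amino acids run short, was 122 TPM in MCF10A against 85.9, 46.2 and 75.2 in MCF10AT1, MCF10DCIS and MCF10CA1a. MCF10DCIS was lowest, with a log2 difference from MCF10A of -1.38, or -1.03 with rescaled TPM. SLC1A5, a glutamine carrier, stayed between 60.6 and 88.1 TPM. Its paralog SLC1A4, a carrier of alanine, serine and cysteine, was at 0.883 TPM in MCF10A against 0.628, 0.142 and 0.0994 in MCF10AT1, MCF10DCIS and MCF10CA1a. SLC1A4 was low in every line and lowest in both carcinoma lines.

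Of the stress effectors, STC2, a secreted stanniocalcin, was high in MCF10AT1 and MCF10CA1a but not in MCF10DCIS. It was 11.2 TPM in MCF10A against 29.9, 8.51 and 23.6 in MCF10AT1, MCF10DCIS and MCF10CA1a. MCF10AT1 and MCF10CA1a were high, with log2 differences from MCF10A of 1.34 and 1.01, and MCF10CA1a was 1.37 above MCF10DCIS. STC2 lies on chromosome 5 from 173314713 to 173329503 (GRCh38).

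TRIB3, a pseudokinase that restrains ATF4 output and AKT, was 25.1 TPM in MCF10A against 29.5, 50.8 and 33.4 in MCF10AT1, MCF10DCIS and MCF10CA1a. MCF10DCIS was the highest line, and its log2 difference from MCF10A of 0.99 lay just under the rule and was 1.37 with rescaled TPM. VLDLR, a lipoprotein receptor among ATF4 targets, was 1.34, 1.35, 0.449 and 2.19 TPM in MCF10A, MCF10AT1, MCF10DCIS and MCF10CA1a. The lines at its extremes, MCF10CA1a and MCF10DCIS, were 1.14 log2 units apart. CHAC1, which degrades glutathione, was 0.629, 1.55, 0.623 and 0.711 TPM in the same order. It stood out only in MCF10AT1, by 0.64 log2 units, or 1.06 with rescaled TPM. SESN2, an inhibitor of mTORC1, stayed between 3.11 and 5.58 TPM.

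In the ATF4 arm as a whole, these differences did not share a direction. In MCF10AT1 against MCF10A, 1 of 22 measured members was higher (STC2) and 0 lower, beside 3.39% and 5.87% of all genes. In MCF10DCIS against MCF10A, 1 was higher (PHGDH) and 1 lower (SLC38A2), beside 3.56% and 14.8%. In MCF10CA1a against MCF10A, 3 were higher (SLC7A11, PHGDH, STC2) and 1 lower (NUPR1), beside 5.97% and 7.14%. Between MCF10CA1a and MCF10DCIS, 2 were higher (STC2, VLDLR) and 1 lower (NUPR1), beside 6.03% and 1.35%. Rescaled values gave 3 and 0, 3 and 1, 3 and 1, and 2 and 1 in the same comparisons. All-gene shares on that scale were 5.8% and 6.65%, 7.82% and 10.3%, 9.44% and 7.79%, and 6.01% and 2.88%. The added genes were SLC7A11 and CHAC1 in MCF10AT1 and SLC7A11 and TRIB3 in MCF10DCIS. The arm's median log2 difference from MCF10A was 0.07 for MCF10AT1, -0.20 for MCF10DCIS and 0.03 for MCF10CA1a, which lay above the medians of all genes by 0.13, 0.18 and 0.10. The MCF10DCIS median turned to 0.16 with rescaled TPM. Members with the highest and lowest line at least 1 apart numbered 8 of 22, against 30.8% of all genes, and 10 of 22 with rescaled TPM, against 32.8%.

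**Figure D4:**
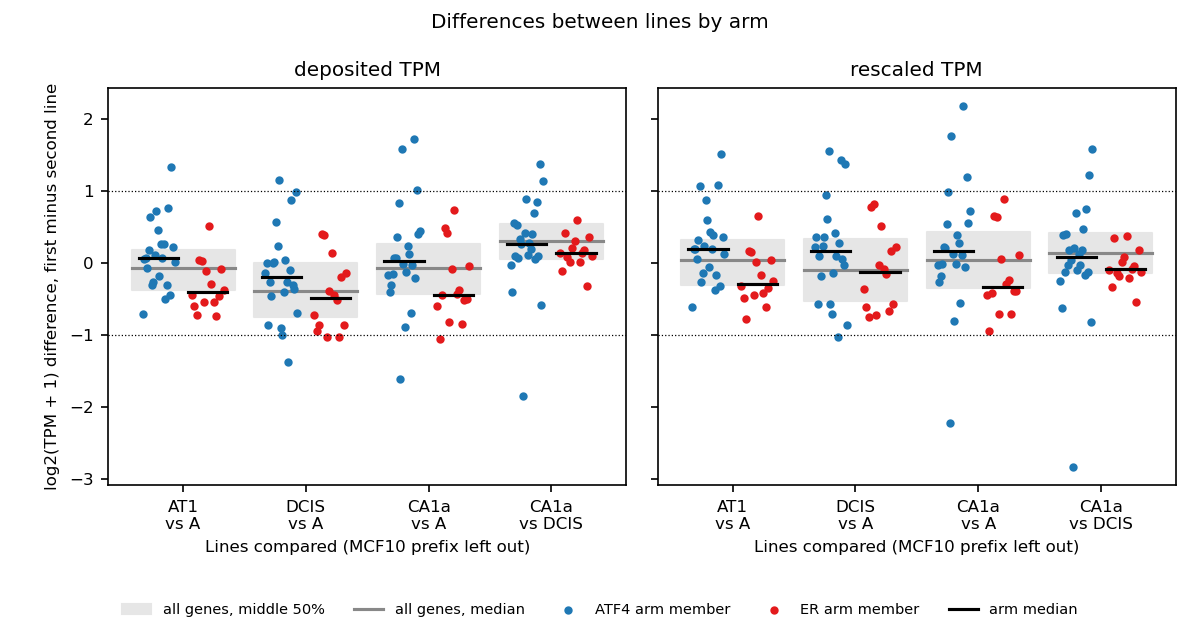
Log2(TPM + 1) differences of the 22 ATF4-arm members (blue) and 14 ER-arm members (red) in 4 comparisons, with deposited TPM on the left and rescaled TPM on the right. Black bars are arm medians, grey bands and lines are the middle 50% and the median of all genes, and dotted lines mark the rule of size. ER-arm medians lie below the all-gene median in every comparison on both scales, and the widest spread is in the ATF4 arm.

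In the ER arm, the sensor and its target stayed below the rule. ERN1 (IRE1), the kinase and ribonuclease that splices XBP1, was 2.14 TPM in MCF10A against 2.20, 3.12 and 3.17 in MCF10AT1, MCF10DCIS and MCF10CA1a. With rescaled TPM its log2 differences from MCF10A were 0.15, 0.82 and 0.64. XBP1, the transcription factor it activates, was 30.2, 23.2, 27.4 and 29.4 TPM in the same order, lowest in MCF10AT1 with a log2 difference of -0.37. The table does not separate spliced from unspliced XBP1.

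Chaperones and folding factors had lower deposited TPM in the derived lines than in MCF10A, with a single exception, HSPA5. Of these 9 genes, 8 had their highest value in MCF10A on the deposited scale and 6 with rescaled TPM. CALR, the calcium-binding lectin chaperone calreticulin and the most abundant of them, was 476 TPM in MCF10A against 349.5, 287 and 315 in MCF10AT1, MCF10DCIS and MCF10CA1a. PDIA4, a protein disulfide isomerase, was 112, 67.3, 54.8 and 62.1 TPM in the same order, and MCF10A stood apart from the other lines. CRELD2, a secreted ER stress protein, was 29.6, 19.3, 14.9 and 13.7 TPM. The log2 differences of CRELD2 from MCF10A were -0.59, -0.95 and -1.05, and those of PDIA4 -0.73, -1.02 and -0.84. With rescaled TPM they were -0.48, -0.61 and -0.95 for CRELD2 and -0.61, -0.66 and -0.71 for PDIA4, none past the rule.

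HSPA5 (BiP), the main ER Hsp70 and the chaperone that holds the stress sensors inactive, was 82.6 TPM in MCF10A against 119, 91.4 and 139 in MCF10AT1, MCF10DCIS and MCF10CA1a. MCF10A was its lowest line, and the log2 differences from it were 0.52, 0.14 and 0.74. With rescaled TPM they were 0.65, 0.51 and 0.89, below the rule. HSPA5 lies on chromosome 9 from 125234853 to 125241330 (GRCh38).

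Within each line, the ratio of HSPA5 to PDIA4 was 0.737 in MCF10A against 1.76, 1.67 and 2.23 in MCF10AT1, MCF10DCIS and MCF10CA1a. The ratio to CALR was 0.174, 0.339, 0.318 and 0.439, and that to HSP90B1, the ER Hsp90, 0.488, 0.759, 0.711 and 0.870. On the log2 scale these ratios were 1.26, 1.18 and 1.60 above MCF10A for PDIA4 and 0.97, 0.87 and 1.34 for CALR. HSPA5 was therefore higher relative to these 3 chaperones in each derived line than in MCF10A, and a single scaling factor per line leaves these ratios as they are. HSP90B1 itself stayed between 129 and 169 TPM.

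The other folding factors differed by less than the rule. DNAJB9, a co-chaperone of HSPA5, was 3.75 TPM in MCF10A and 1.61 to 2.48 TPM in the derived lines. MANF, a secreted ER stress factor, was 55.04 TPM in MCF10A and 37.5 to 42.2 elsewhere. HYOU1, a large Hsp70 relative, spanned 28.5 to 39.2 TPM and SDF2L1, which helps HSPA5 clients fold, 23.03 to 33.3 TPM. The TPM of the 9 genes summed to 1001 in MCF10A against 806, 674 and 786 in MCF10AT1, MCF10DCIS and MCF10CA1a. With rescaled TPM the sums were 2909, 2562, 2532 and 2525, so the derived lines then lay close together.

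Genes of ER-associated degradation, which returns misfolded proteins to the proteasome, went both ways. HERPUD1, a membrane scaffold of the degradation complex, was 21.6 TPM in MCF10A against 14.5, 10.1 and 11.9 in MCF10AT1, MCF10DCIS and MCF10CA1a. Its log2 differences from MCF10A were -0.54, -1.03 and -0.82, or -0.44, -0.72 and -0.71 with rescaled TPM. SEL1L, the partner of the ubiquitin ligase HRD1, was 5.74 to 11.2 TPM, lowest in MCF10DCIS. EDEM1, which pulls misfolded glycoproteins out of the folding cycle, was 16.3 TPM in MCF10A against 16.8, 21.9 and 23.3 in MCF10AT1, MCF10DCIS and MCF10CA1a. Its log2 differences from MCF10A were 0.04, 0.41 and 0.49, or 0.17, 0.78 and 0.65 with rescaled TPM.

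Over the 14 ER-arm members, 0 passed the rule in MCF10AT1 against MCF10A, 2 were lower in MCF10DCIS (PDIA4, HERPUD1) beside 14.8% of all genes, and 1 was lower in MCF10CA1a (CRELD2) beside 7.14%. Between MCF10CA1a and MCF10DCIS 0 passed it. With rescaled TPM 0 passed it in any of the 4 comparisons. These shares are near or below those of all genes. The arm's median log2 difference from MCF10A was -0.41 for MCF10AT1, -0.48 for MCF10DCIS and -0.44 for MCF10CA1a. With rescaled TPM it was -0.28, -0.12 and -0.34. The rescaled medians minus those of all genes were -0.32 for MCF10AT1, -0.026 for MCF10DCIS and -0.38 for MCF10CA1a, so the arm lay below other genes in the first and last of these lines and close to them in MCF10DCIS. MCF10A held the highest value in 11 of 14 ER-arm genes, against 40.3% of all genes, and in 7 of 14 with rescaled TPM, against 28.8%. In the ATF4 arm it did so in 6 of 22, or 2 of 22 with rescaled TPM. The comparisons with MCF10A share that line.

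The ER arm was also read by promoter motif. With rescaled TPM, the 8 genes with an ERSE or ERSE-II match had a median difference from MCF10A of -0.28 for MCF10AT1, -0.057 for MCF10DCIS and -0.34 for MCF10CA1a. The 6 without had -0.19, -0.36 and -0.31, so the medians lay farthest apart in MCF10DCIS. The difference between these groups was not tested. HSPA5 and CRELD2, which went in opposite directions, both have an ERSE match, printed above.

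Some of these genes lie on chromosomes whose genes differed between the lines as a whole. With rescaled TPM, the median of all measured genes on chromosome 7 was -0.44, -0.66 and -0.51 in MCF10AT1, MCF10DCIS and MCF10CA1a against MCF10A. On chromosome 16 it was -0.43, -0.62 and -0.53, and on chromosome 9 it was 0.58, -0.095 and 0.56. Between MCF10CA1a and MCF10DCIS, the medians of chromosome 9 and of chromosome 20, which holds CEBPB and TRIB3, were 0.68 and 0.69. PDIA4, DNAJB9, ASNS and PSPH lie on chromosome 7, NUPR1, SLC7A5 and HERPUD1 on 16, and HSPA5, PSAT1 and VLDLR on 9. Several went against their chromosome. In MCF10DCIS, ASNS differed from MCF10A by 0.22 and SLC7A5 by 0.06, and NUPR1 by 0.24 in MCF10AT1 and 0.61 in MCF10DCIS.

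Each gene was set beside the median of measured genes within 5 Mb on either side. In MCF10CA1a against MCF10A, PDIA4 differed by -0.71 and its neighbours by -0.67. HERPUD1 differed by -0.71 and its neighbours by -0.65. Both genes thus lay close to the genes around them in this line. PSPH, with 10 neighbours, differed by -0.80 with neighbours at -0.59 in MCF10CA1a, and by -0.06 with neighbours at -0.50 in MCF10AT1. CRELD2 differed by -0.95 with neighbours at 0.04, and CALR by -0.45 with neighbours at 0.04, so these genes were lower than their surroundings. NUPR1 differed by -2.22 with neighbours at -0.48. MTHFD2 differed by 0.98 with neighbours at 0.65 in MCF10CA1a, and by 0.95 with neighbours at 0.40 in MCF10DCIS.

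For HSPA5 the neighbours moved in the same direction in 2 lines. It differed by 0.65 in MCF10AT1 with neighbours at 0.48, and by 0.89 in MCF10CA1a with neighbours at 0.42. In MCF10DCIS it differed by 0.51 while its neighbours were at -0.20. PSAT1, also on chromosome 9 and with 13 neighbours, differed by 0.60, -0.57 and 0.13 in MCF10AT1, MCF10DCIS and MCF10CA1a. The neighbours of PSAT1 were at 0.38, -0.26 and 0.47. Between MCF10CA1a and MCF10DCIS, PSAT1 differed by 0.70 with neighbours at 0.85. PHGDH differed by 0.87, 1.56 and 1.76 in MCF10AT1, MCF10DCIS and MCF10CA1a with neighbours at 0.02, -0.12 and 0.15. SLC7A11 differed by 1.08, 1.43 and 2.18 with neighbours at -0.04, -0.24 and -0.16. TRIB3 differed by 1.37 in MCF10DCIS with neighbours at -0.51. Between MCF10CA1a and MCF10DCIS, VLDLR differed by 1.58 with neighbours at 0.62.

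Set against neighbours, the ER arm had a median of -0.29 in MCF10AT1, with 11 of 14 genes below their surroundings. In MCF10CA1a the median was -0.062 with 10 of 14 below, and in MCF10DCIS -0.0050 with 7 of 14 below. The ATF4 arm had 0.20, 0.39 and 0.17 in MCF10AT1, MCF10DCIS and MCF10CA1a, with 16, 14 and 13 of 22 genes above their neighbours. The part of chromosome-wide differences in the levels of single genes was not tested.

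**Figure D5:**
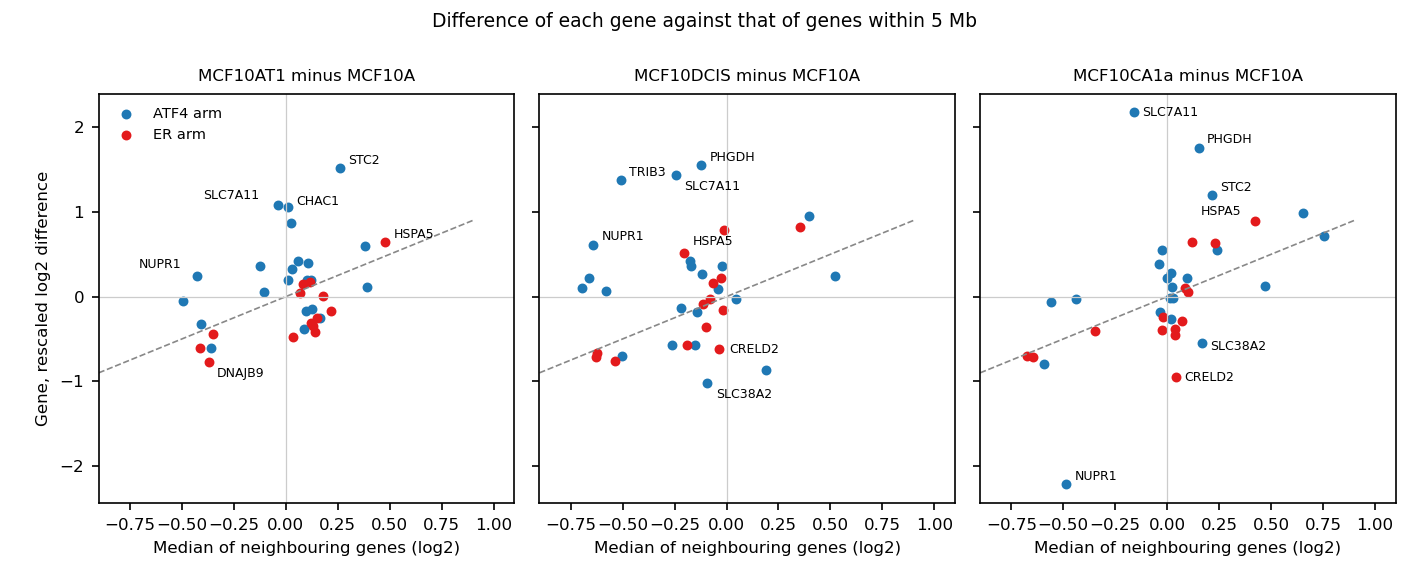
Rescaled log2 difference from MCF10A of each of the 36 genes (vertical) against the median difference of measured genes within 5 Mb (horizontal), 1 panel per derived line, with the dashed line where both are equal. SLC7A11, PHGDH and NUPR1 lie far from the dashed line in MCF10CA1a, while 3 red ER-arm points at the lower left (PDIA4, HERPUD1 and DNAJB9) lie near it.

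Other genes of the pathways were read from further lists. Of 12 eIF2 kinases, phosphatase and exchange factor subunits, 1 was lower in MCF10DCIS than in MCF10A, beside 14.8% of all genes. This was EIF2AK1, the haem-regulated kinase, at 16.9 and 36.6 TPM, and its difference was -0.74 with rescaled TPM, short of the rule. PPP1R15A (GADD34), which restores translation after stress, was 8.26, 7.51, 4.81 and 15.5 TPM in MCF10A, MCF10AT1, MCF10DCIS and MCF10CA1a. It was 1.504 log2 units higher in MCF10CA1a than in MCF10DCIS, where 6.03% of all genes were higher. In MCF10CA1a against MCF10A it differed by 0.83, or by 1.02 with rescaled TPM. The latter is past the rule, beside 9.44% of all genes. No other gene of this list passed the rule in the 4 comparisons on the deposited scale.

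Of 20 further ATF4 targets, 18 were measured, with 0 higher and 4 lower in MCF10AT1, 1 and 5 in MCF10DCIS and 1 and 3 in MCF10CA1a against MCF10A. All-gene shares of lower calls were 5.87%, 14.8% and 7.14%, and of higher calls 3.39%, 3.56% and 5.97%. With rescaled TPM the list had 0 and 4, 2 and 5, and 1 and 5, beside 6.65%, 10.3% and 7.79% of all genes lower and 5.8%, 7.82% and 9.44% higher. Against MCF10A, lower calls thus outnumbered higher ones on both scales, as they did for all genes with deposited TPM. Between MCF10CA1a and MCF10DCIS the list had 2 higher and 0 lower, beside 6.03% and 1.35% of all genes. With rescaled TPM it had 2 and 1 there, beside 6.01% and 2.88%. GDF15, a secreted stress cytokine, was 59.04, 20.3, 42.6 and 120.5 TPM across MCF10A, MCF10AT1, MCF10DCIS and MCF10CA1a. GPT2, a mitochondrial alanine aminotransferase, was 16.3, 6.31, 3.30 and 5.86 TPM, highest in MCF10A. DDIT4, an inhibitor of mTORC1 also raised by hypoxia and glucocorticoids, was 592, 1037, 1339 and 784 TPM. Among genes too low for the naming rule and chosen after their values were seen, ALDH1L2, a mitochondrial folate dehydrogenase, differed by -2.59 and JDP2, a bZIP repressor, by -1.53 in MCF10CA1a against MCF10A.

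Cytosolic aminoacyl-tRNA synthetases induced by ATF4 had median differences from MCF10A of -0.11 for MCF10AT1, -0.45 for MCF10DCIS and -0.31 for MCF10CA1a, with 0, 1 and 0 of 13 genes lower. GARS1, the glycyl-tRNA synthetase, was the gene past the rule, at 81.9 TPM in MCF10A and 38.4 in MCF10DCIS, where 14.8% of all genes were lower. With rescaled TPM the medians were 0.01, -0.09 and -0.17 with 0 genes lower, and GARS1 differed by -0.72. The 7 synthetases of other control had medians of 0.14, -0.29 and 0.03 with deposited TPM. With rescaled TPM these were 0.27, 0.07 and 0.18, and 0 genes were past the rule on either scale.

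Further ER folding and secretory genes, 21 of 22 measured, had medians of 0.01, -0.41 and 0.03 with deposited TPM. These were nearer to those of all genes than the medians of the ER arm in MCF10AT1 and MCF10CA1a. SEC61B, a subunit of the translocon, was 26.7, 45.8, 17.8 and 38.9 TPM, and the thioredoxin-like TXNDC11 11.7, 6.86, 5.07 and 6.59 TPM. Among further degradation genes, DERL1, a channel component, was 33.6 TPM in MCF10A and 13.5 in MCF10DCIS, and VCP, the extracting ATPase, 155 TPM in MCF10AT1 and 73.9 in MCF10DCIS. Of 6 measured regulators of the ATF6 branch, MBTPS1, the protease that cuts ATF6, was 24.9 TPM in MCF10A and 11.2 in MCF10DCIS, and CREB3, a related factor, 24.4 in MCF10AT1 and 10.1 in MCF10DCIS. The differences of TXNDC11, DERL1 and MBTPS1 between MCF10DCIS and MCF10A, past the rule on the deposited scale, were -0.81, -0.93 and -0.77 with rescaled TPM.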

How the data were processed

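The members and gene lists were chosen with earlier results of these data known. Per the file headers, the authors deposited TPM averaged over the libraries of a line, 1 column per line summing to 1000000; depth per library is unknown. The submitters' processing notes name STAR, edgeR and build hg38; versions, strand setting, annotation and quantifier: not given in the sources used here. Planned limma tests were not run, since they need a value per library.

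Differences are log2(TPM + 1), first line minus second, over genes with at least 1 TPM in at least 1 line, with a size rule of 1. Members past the rule in any comparison, or with lines at least 1 apart, are given in every line, as are ATF4, DDIT3, XBP1, ERN1 and HSPA5; of each further list, up to 3 genes with at least 10 TPM are named, apart from 1 gene that is not reported here. RNA classes for rescaling came from GENCODE release 29 and RefSeq; neighbours within 5 Mb (at least 10) came from RefSeq positions for 12160 genes; member positions are from GENCODE. Python 3.11.15 with pandas 2.3.3 was used. The code for the rule was run on copies of the MCF10A values with known folds and no noise, which cannot measure false calls.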

Additional observations from a re-analysis of the deposited data

How the results depend on the processing

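Limits: means per line carry no spread, 1 line stands for a stage, and the depth is unknown. No paired analysis was possible because the table holds 1 mean per line, and leaving out each library and the fit with a replicate block were not run for the same reason. Of the 6 alternatives run, the filters leave the difference of a single gene as it is. Under the others, no single-gene difference past the rule changed sign. Medians near 0 did change sign. That of the ATF4 arm in MCF10DCIS against MCF10A went from -0.20 to 0.17 with quantile normalization, 0.19 with median-of-ratios scaling and 0.16 with rescaled TPM. That of the ER arm in MCF10CA1a against MCF10DCIS went from 0.14 to -0.16, -0.24 and -0.09 with the same scalings. The ATF4-arm median in MCF10CA1a against MCF10DCIS went from 0.27 to -0.04 with quantile normalization and -0.05 with median-of-ratios scaling, and against MCF10A from 0.03 to -0.03 with a filter of 5 TPM and -0.02 with none. Of the single-gene differences, counted once per alternative that can alter them, 16 went past the rule and 13 fell short of it.

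A few counts are small and moved by over 1.5 times. All-gene shares were counted only for deposited and rescaled TPM, so the counts under the other settings have none beside them. A filter moves no value: at 5 TPM, NUPR1 and VLDLR, at most 3.98 and 2.19 TPM in any line, are no longer counted. Median-of-ratios scaling applies a single factor per line, so all genes of a line move together. For the pseudocount and quantile normalization, the counts do not tell whether the members or all genes moved. With a pseudocount of 0.1, the ATF4 arm had 3 higher in MCF10AT1 and 3 higher and 3 lower in MCF10DCIS against MCF10A. With a filter of 5 TPM it had 0 lower in MCF10CA1a against MCF10A and 1 higher and 0 lower in MCF10CA1a against MCF10DCIS. With quantile normalization the ATF4 arm had 3 higher and 0 lower in MCF10DCIS against MCF10A and 1 higher in MCF10CA1a against MCF10DCIS; with median-of-ratios scaling these were 4, 0 and 1. With rescaled TPM it had 3 higher in MCF10AT1 and 3 higher in MCF10DCIS, beside 5.8% and 7.82% of all genes. Under all 3 of these scalings the ER arm had 0 lower in MCF10DCIS, 0 lower in MCF10CA1a, and 0 members with lines at least 1 apart. The all-gene median of MCF10DCIS against MCF10A was 0.00035 with quantile normalization, which gives all lines the same distribution of values. It was -0.00044 with median-of-ratios scaling, which centres the lines by construction, and -0.095 with rescaled TPM, which does neither. For MCF10AT1 against MCF10A the median with quantile normalization was 0.042.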

Other observations

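Cytosolic heat shock genes, which respond to unfolded proteins outside the ER through HSF1, were all measured. Of the 11, 1 was lower in MCF10AT1, 3 in MCF10DCIS and 1 in MCF10CA1a against MCF10A, beside 5.87%, 14.8% and 7.14% of all genes, and 0 were higher. With rescaled TPM 1 was lower in each line, HSPB1. HSPB1, a small heat shock protein, was 634 TPM in MCF10A against 246, 200.03 and 248 in MCF10AT1, MCF10DCIS and MCF10CA1a. DNAJA1 and HSPH1, partners of Hsp70, were 45.2 and 31.3 TPM in MCF10A and 21.96 and 14.4 TPM in MCF10DCIS, with rescaled differences of -0.67 and -0.74, short of the rule.

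Of 10 further serine and one-carbon genes, 8 were measured, and ALDH1L1, a cytosolic folate dehydrogenase, was the gene past the rule. It was at 3.59 TPM in MCF10DCIS and at most 0.229 TPM in the other lines. It is named after its values were seen, being under the 10 TPM asked of other genes.

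Copies of the members listed as pseudogenes by name took few of the TPM. Those of SLC7A5 reached 5.24% of the gene in the line where their share was largest, and those of XBP1 0.653%.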
